A study of Mus musculus with 4 samples.

Results

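The sarcoplasmic reticulum, the membrane store that surrounds each myofibril, releases calcium to start contraction and takes it back to end it. Uptake is the work of the SERCA calcium pumps, which move calcium from the cytosol into the store at the cost of ATP. Small membrane proteins bind the pumps and slow them, and proteins in and across the store membrane hold the calcium and couple it to the release channel. The genes described here are the 3 SERCA pumps (Atp2a1, Atp2a2 and Atp2a3), the pump inhibitors sarcolipin (Sln) and phospholamban (Pln), and 3 genes for proteins of the store: Asph, whose products include junctin and junctate, Hrc, the histidine-rich calcium-binding protein, and Srl, sarcalumenin. They were taken by symbol, 8 of the 21668 protein-coding genes examined, and the rule that picks them uses their names and no measured value.

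Histone H3 lysine 27 acetylation (H3K27ac), a mark of active promoters and enhancers, was measured by chromatin immunoprecipitation and sequencing in gastrocnemius, a muscle of the calf in which fast fibres prevail. All samples formed 1 group, taken from female adult B6CASTF1/J mice, a hybrid strain, at 2 months of age; the labels name no treatment. There were 2 biological replicates, each a pool of 2 gastrocnemius biosamples with 2 technical libraries that shared 1 alignment. The deposited data are peak lists on mm10, here called regions, and 3 of them are used side by side: 1 for replicate 1, 1 for replicate 2 and the replicated list made from both. Read counts are no part of the lists, so the depth is unknown and a value of 0 means that no region was listed. With 1 group there is nothing to test between conditions, and the spread is given as the values of both replicates. In bulk muscle, fewer nuclei with a mark and less of the mark per nucleus cannot be told apart.

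The members were described in 3 ways. A promoter region is any region within 1 kb of a protein-coding transcript start of the gene. The acetylated length is the number of base pairs under regions within 5 kb on either side of the start where that sum is largest, out of 10000 bp. The window of a gene is its body plus 50 kb on each side, and its covered percentage is the share of those bases under regions. The signal value is the authors' own number for each region and is compared only within a list.

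The reference sequences just before the starts are shown because they differ widely in base composition. In the replicated list they include a sequence under the longest acetylated stretch of the set (Atp2a1). They also include one under the shortest stretch that includes a promoter region (Atp2a3). They were read from the RefSeq promoter table on GRCm38.p6, the assembly of mm10, which held 4 members (Atp2a1, Atp2a3, Pln and Hrc), and end at the base before the RefSeq start or the first GENCODE start, whichever is further upstream. Each is on the coding strand. The capitals mark CAGCTG, an E-box of the form bound by myogenic factors, or TATAAA, a core promoter element.
Atp2a1 (chr7:126463109-126463323, minus strand): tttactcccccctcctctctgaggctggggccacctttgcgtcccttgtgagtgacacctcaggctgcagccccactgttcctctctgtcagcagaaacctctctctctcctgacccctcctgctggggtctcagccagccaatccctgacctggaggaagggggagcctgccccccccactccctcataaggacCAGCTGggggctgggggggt
Hrc (chr7:45335019-45335268, plus strand): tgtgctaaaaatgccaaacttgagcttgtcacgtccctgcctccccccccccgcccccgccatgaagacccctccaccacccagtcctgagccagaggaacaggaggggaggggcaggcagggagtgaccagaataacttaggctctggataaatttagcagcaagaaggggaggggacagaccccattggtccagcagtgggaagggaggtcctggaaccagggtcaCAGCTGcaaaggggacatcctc
Atp2a3 (chr11:72960919-72961168, plus strand): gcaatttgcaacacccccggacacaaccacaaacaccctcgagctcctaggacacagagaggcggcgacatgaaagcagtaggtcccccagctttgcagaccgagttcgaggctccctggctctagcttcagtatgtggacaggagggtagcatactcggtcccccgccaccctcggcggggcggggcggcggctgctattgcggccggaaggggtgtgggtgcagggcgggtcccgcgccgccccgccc
Pln (chr10:53337436-53337666, plus strand): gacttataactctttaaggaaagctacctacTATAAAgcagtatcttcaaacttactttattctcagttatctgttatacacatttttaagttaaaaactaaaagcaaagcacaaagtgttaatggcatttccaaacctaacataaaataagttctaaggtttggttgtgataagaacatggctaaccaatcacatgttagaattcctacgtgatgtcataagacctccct
The Atp2a1 stretch is 215 bases long with 64.2% GC and 1 CpG, and its E-box begins 20 bases before its end. The Hrc stretch is 59.6% GC with 3 CpGs, and its E-box begins 22 bases before its end. Atp2a3 has 20 CpGs and 66.8% GC and neither of the motifs, whereas the 231 bases of Pln have 32.0% GC, 1 CpG and the letters TATAAA 200 bases before the end. Of 32851 promoters in the table, 13.0% held CAGCTG and 12.4% held TATAAA in the bases upstream of the start, either strand, and the median was 52.4% GC and 6 CpGs. A match to these letters is a description and not evidence of binding. The animals were hybrids, and the sequences are those of the reference assembly. Most of the Pln stretch lies in a gap of 168 bp between regions of the replicated list. In replicate 1 no region covers the Pln or the Atp2a3 stretch.

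Away from starts, the strongest regions of the windows included the following, each shown as the 100 bases around the summit to give the sequence under a leading distal peak of 6 of the windows. None of these 100-base stretches overlaps an annotated exon, and the capitals mark CATTCC, the M-CAT element.
Srl, 48131 bp downstream of the start (chr16:4474894-4474993, plus strand of the assembly): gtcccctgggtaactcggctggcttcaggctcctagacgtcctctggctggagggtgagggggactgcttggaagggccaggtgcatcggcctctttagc
Pln, 45285 bp downstream, upstream of Cep85l (chr10:53382940-53383039): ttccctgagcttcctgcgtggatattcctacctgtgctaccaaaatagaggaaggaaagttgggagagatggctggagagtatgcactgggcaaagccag
Hrc, 6105 bp upstream, inside Trpm4 (chr7:45329135-45329234): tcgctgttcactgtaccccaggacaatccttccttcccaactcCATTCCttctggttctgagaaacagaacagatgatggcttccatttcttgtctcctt
Asph, in an intron (chr4:9657389-9657488): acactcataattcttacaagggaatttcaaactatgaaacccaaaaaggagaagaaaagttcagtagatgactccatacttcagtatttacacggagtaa
Atp2a2, 45249 bp upstream (chr5:122547424-122547523): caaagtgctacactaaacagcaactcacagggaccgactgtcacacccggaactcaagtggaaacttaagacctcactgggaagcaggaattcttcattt
Atp2a3, 8511 bp upstream (chr11:72952608-72952707): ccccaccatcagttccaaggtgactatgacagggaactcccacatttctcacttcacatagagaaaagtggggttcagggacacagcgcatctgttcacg
All 6 lay in regions shared with both replicates, and their regions had signal values of 32.3, 21.5, 17.0, 13.5, 13.4 and 12.8 in the order given. Nearly all regions of the genome with a signal value of 10 or more were shared in this way. The other leading regions away from starts were one of 15.7 inside Anapc7 in the Atp2a2 window (chr5:122438743-122441542), one of 9.40 inside Cep85l in the Pln window (chr10:53323044-53326724), one of 7.52 upstream of Atp2a3 (chr11:72940292-72941139) and one of 6.95 upstream of Hrc (chr7:45296033-45297559). In the Atp2a1 window the leading ones had 8.39 upstream of the gene and 6.35 over its exons (chr7:126449489-126451357). These were below the 6 shown but above the median of 4.77 of all regions.

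Every gene of the set but Sln had a promoter region, in each replicate. The replicated list and the list of either replicate each gave 7 of 8 genes, beside 61.2% of all protein-coding genes in the replicated list and 58.6% in both single replicates. In replicate 1 the promoter regions of Atp2a3 and Pln lay near a start but over none. The acetylated length of the members ranged from 0 bp at Sln to the full 10000 bp at Atp2a1. Its median was 6219 bp in the replicated list, 4372 bp in replicate 1 and 6976 bp in replicate 2, beside 1470, 1185 and 1467 bp over all genes. The median window was covered to 18.7% (12.1% and 18.5% in the replicates), beside 5.78% (4.15% and 5.85%) over all genes. Promoter signal values fell into a high set, from 29.3 to 51.3 at 5 genes, and a low set of 6.05 at Atp2a3 and 4.51 at Pln.

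**Figure D1:**
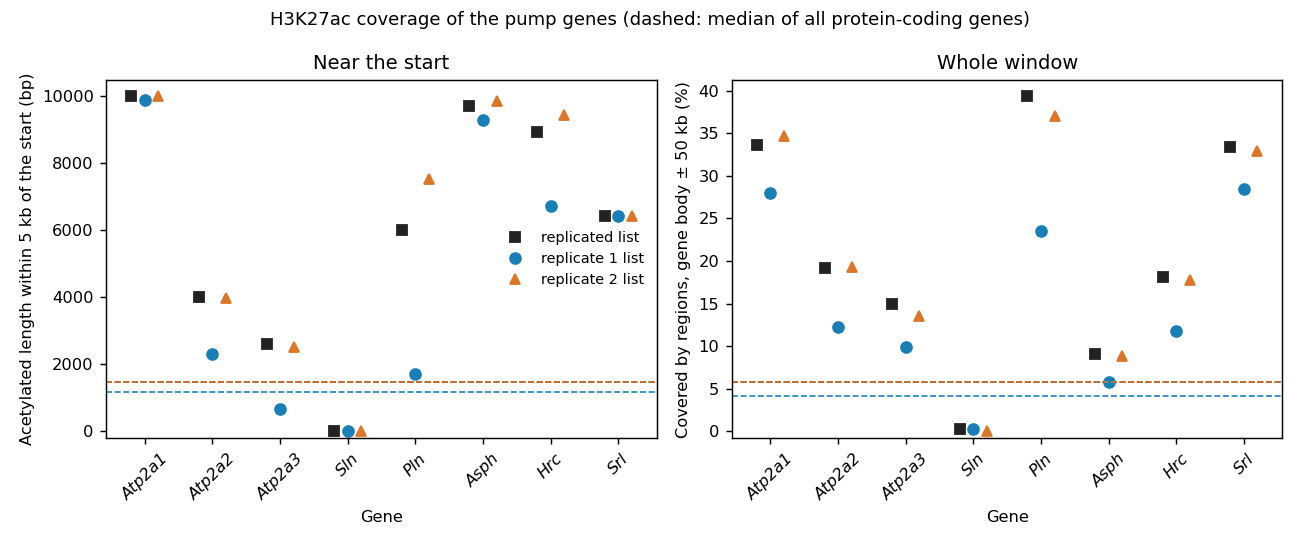
Acetylated length within 5 kb of the start (left, bp) and covered percentage of the gene body plus 50 kb on each side (right) for each gene, with a square for the replicated list, a circle for replicate 1 and a triangle for replicate 2; dashed lines are medians of all protein-coding genes in each list. Atp2a1 and Asph are near 10000 bp in both replicates, Sln is at 0, and Pln has 1701 bp in replicate 1 and 7529 bp in replicate 2.

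Among the pumps, the fast-fibre gene stood alone. Atp2a1 (SERCA1, the pump of fast skeletal fibres; chr7:126445858-126463108, minus strand) was acetylated over 10000 bp in the replicated list, 9900 bp in replicate 1 and 10000 bp in replicate 2. A single region of 17284 bp (chr7:126452101-126469384) ran over its start, wider than 99.9% of all regions, with a signal value of 48.5 (39.1 and 48.1 in the replicates). It extended over most of the gene, and with its neighbours it covered 97.1% of the gene body, 86.0% in replicate 1 and 98.4% in replicate 2. The gene Rabep2 overlaps the downstream end of Atp2a1, and the wide region also ran upstream into the body of Sh2b1. Acetylation over those bases cannot be assigned to a single gene in these lists. Across all protein-coding genes the acetylated length of Atp2a1 reached percentile 99.8 in each of the 3 lists.

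Atp2a2 (chr5:122453513-122502225, minus strand) makes SERCA2, whose SERCA2a form serves slow fibres and heart and whose SERCA2b form is made in most cells. Its acetylated length was 4024 bp (replicate 1, 2304 bp; replicate 2, 3998 bp), or percentiles 82.2, 72.5 and 82.1 of all genes. At the start, 2 regions of signal values 26.2 (chr5:122499156-122502298) and 29.3 (chr5:122502410-122503290) were parted by a gap of 111 bp just upstream of the outer start. In replicate 1 that start had 2 regions as well, with a highest signal value of 21.5. The gene body was covered to 11.5%, 5.41% in replicate 1 and 11.8% in replicate 2.

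Atp2a3 (SERCA3, a pump best known from blood, endothelial and epithelial cells; chr11:72961169-72993044, plus strand) had the least acetylation of the pumps. Its acetylated length was 2614 bp in the replicated list, 657 bp in replicate 1 and 2522 bp in replicate 2. The region at the start (chr11:72960375-72962234) had a signal value of 6.05, with 5.21 and 6.26 in the replicates, against a median of 11.2 over all genes. In replicate 1 the region lay within 1 kb of the start but not over it. At percentile 44.4 for promoter signal, Atp2a3 was below the middle of all genes, while its length was at percentile 69.6. The signal percentile and the median of 11.2 include genes without a promoter region. Only 61.2% of all genes had such a region, so the Atp2a3 signal was low among the genes with one.

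In every list the pumps kept the order Atp2a1, Atp2a2, Atp2a3 in acetylated length and in promoter signal. The replicate values of Atp2a1 (9900 and 10000 bp) did not overlap those of the other pumps. Those of Atp2a2 (2304 and 3998 bp) and Atp2a3 (657 and 2522 bp) overlapped across the replicates, although within each replicate Atp2a2 was the longer. In promoter signal the same 2 genes were apart in both replicates, 21.5 and 31.5 against 5.21 and 6.26.

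Of the inhibitors, Sln was bare and Pln carried the mark. Sln (sarcolipin, a small inhibitor of SERCA; chr9:53850164-53854560, plus strand) had no region within 5 kb of its start in any list, and none over its body. Within its window of 104 kb the replicated list held 1 region (chr9:53829594-53829929, 336 bp, signal value 3.48), 20517 bp upstream of the start. It was shared with replicate 1 (3.55) and absent from replicate 2. The window was covered to 0.322%, 0.302% and 0%, and no other protein-coding start lay in it.

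Pln (phospholamban, an inhibitor best known from slow fibres and heart; chr10:53337667-53345987, plus strand) had a long but weak stretch of the mark, and the replicates disagreed on its length. The acetylated length was 6002 bp in the replicated list, 1701 bp in replicate 1 and 7529 bp in replicate 2, which is percentile 92.1, 61.6 and 96.6 of all genes. Of the 1701 bp in replicate 1, 1407 bp lay upstream of the start and 294 bp downstream, and no region lay over a Pln start. The body of Pln was covered to 76.8%, 9.65% and 77.5%. Promoter signal values stayed low in each list, 4.51, 3.87 and 5.94, at percentiles 42.2, 42.6 and 43.7 of all genes, those without a promoter region included.

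In the replicated list the Pln starts, 4 within 38 bp, sat at the edge of a gap of 168 bp between a region of 4.51 (chr10:53336560-53337502) and a region of 3.25 (chr10:53337671-53340097). The gene body held 5 regions with signal values from 2.82 to 3.87. Replicate 2 shared all 5 and replicate 1 shared 2 of them. Regions of that strength were often missing from replicate 1: of all regions with a signal value under 5, 39.3% were shared with replicate 1 and 69.7% with replicate 2.

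Pln lies inside Cep85l, a centrosomal protein gene of the opposite strand, so the acetylation over it cannot be told apart from that of Cep85l. The strongest region of the Pln window (chr10:53375918-53380913) had a signal value of 58.7, with 51.6 in replicate 1 and 54.3 in replicate 2, and its summit lay 226 bp from the 5′ end of Cep85l. That end is 42.3 kb from the start of Pln. Nearer to Pln, a region of 8.15 (chr10:53347818-53352008), shared with both replicates, lay within 1 kb of another coding start of Cep85l. Its summit was 10909 bp downstream of the nearest Pln start. Cep85l itself had 8732 acetylated bp. In the replicated list and in replicate 2 Pln had the highest window coverage of the members, 39.3% and 37.0%, while in replicate 1 its 23.5% was below Srl (28.4%) and Atp2a1 (28.0%). Its promoter signal was the lowest among the members with a promoter region in each of these lists.

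**Figure D2:**
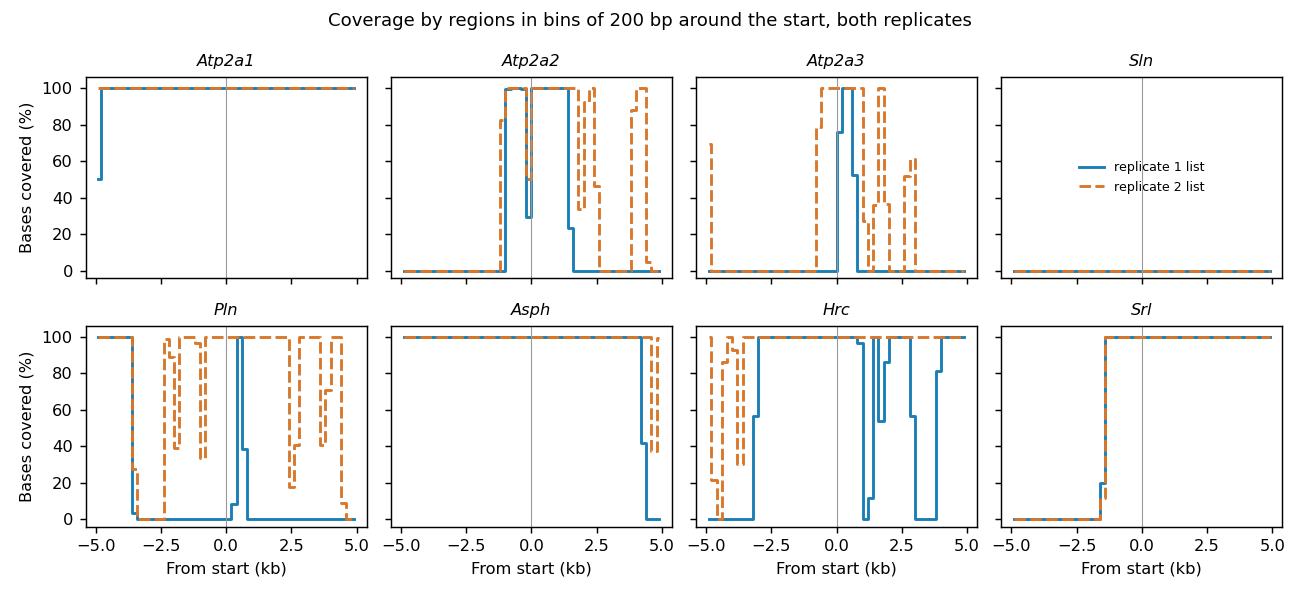
Percentage of bases under regions in bins of 200 bp (y axis) against distance from the start in kb along the gene's direction (x axis), with replicate 1 as a solid blue line and replicate 2 as a dashed orange line. The lines coincide at Atp2a1, Srl and most of Asph, while at Pln and Atp2a3 replicate 2 covers bins that replicate 1 leaves empty.

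Genes for the store's own proteins had long acetylated stretches at their starts, from 6436 bp at Srl to 9709 bp at Asph in the replicated list. Asph (chr4:9448069-9669344, minus strand) encodes both aspartate beta-hydroxylase, an enzyme of most cells, and, from other transcripts, junctin and junctate, which lack the enzyme domain. It has 2 clusters of coding starts 25.6 kb apart. The internal start (chr4:9643717), which belongs to 4 transcripts, had 9709 acetylated bp (replicate 1, 9284 bp; replicate 2, 9874 bp). These lay under a region of 10920 bp (chr4:9639008-9649927) with a signal value of 47.6 (35.6 and 47.6). None of those 4 transcripts runs to the far end of the gene: the longest ends at 9575267, 68.5 kb on. The outer starts (9669162 and 9669344), of 8 transcripts, some of which span 220 kb, had 4469 to 4519 bp under a region (chr4:9667987-9670204) of 21.3, with 15.2 and 29.0 in the replicates. Replicate 1 had at most 2655 bp and replicate 2 had 4704 bp at the outer starts. In each list, then, the internal start had about the full window covered and the outer starts less. Over its long body Asph was covered to 10.8% (7.32% and 10.6% in the replicates), and its window to 9.04% (5.75% and 8.81%), the least after Sln. Between the starts lay further regions in introns, among them those of 13.5 (chr4:9655930-9659168) and 10.9 (chr4:9652711-9654243).

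Hrc (chr7:45335290-45338974, plus strand), which encodes a calcium-binding protein of the store lumen that interacts with triadin and SERCA, was acetylated over its whole body in the replicated list and in replicate 2 and over 65.4% in replicate 1. The acetylated length was 8950 bp in the replicated list, with 6741 bp for replicate 1 and 9462 bp for replicate 2. The region over it (chr7:45331561-45341189, 9629 bp) had a signal value of 49.3, with 40.3 in replicate 1 and 48.1 in replicate 2. That region is shared with the start of Trpm4, a calcium-activated cation channel gene that runs the opposite way from a start 1510 bp away. The summit was 147 bp from the Trpm4 start and 1657 bp upstream of Hrc, so which of these genes the mark belongs to cannot be told apart in these lists. In replicate 1 the region over the start was 4106 bp long, and the remainder of the gene was covered in pieces.

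Srl (sarcalumenin, a calcium-binding glycoprotein of the store; chr16:4480216-4541816, minus strand) had nearly the same acetylated length in every list, 6436 bp in the replicated list, 6440 bp in replicate 1 and 6423 bp in replicate 2. Upstream of the coding start 1436, 1440 and 1423 bp were covered, and downstream all 5000 bp. The region over the start (chr16:4509656-4524510, 14855 bp) had the highest promoter signal value of the members in the replicated list and in replicate 2, 51.3 and 52.8. In replicate 1 it was 39.5, below Hrc at 40.3. The body was covered to 60.5%, 53.4% and 61.6%, and 10 regions touched the gene.

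The 5′ end of the Srl gene model, at 4541816, lies 18.7 kb upstream of the coding start. There 4960 bp were acetylated in the replicated list, 4431 and 4463 bp in the replicates, with signal values of 14.2, 9.47 and 17.7. Beyond the ends of the gene, its window held a region of 32.3 (chr16:4473945-4476237) past the 3′ end and one of 21.2 (chr16:4585836-4588548) upstream, both present in the replicates. No other distal region of the 8 windows, promoters of other genes aside, reached 32.3.

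In replicate 1 the order of acetylated length was Atp2a1, Asph, Hrc, Srl, Atp2a2, Pln, Atp2a3 and Sln. In replicate 2 it was Atp2a1, Asph, Hrc, Pln, Srl, Atp2a2, Atp2a3 and Sln, so Pln alone changed its place relative to the others. Leaving Pln aside, neighbours whose replicate values did not overlap were Atp2a1 and Asph, Hrc and Srl, Srl and Atp2a2, and Atp2a3 and Sln. Asph (9284 and 9874 bp) and Hrc (6741 and 9462 bp) overlapped, as did Atp2a2 and Atp2a3. Pln overlapped each of Hrc, Srl, Atp2a2 and Atp2a3.

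**Figure D3:**
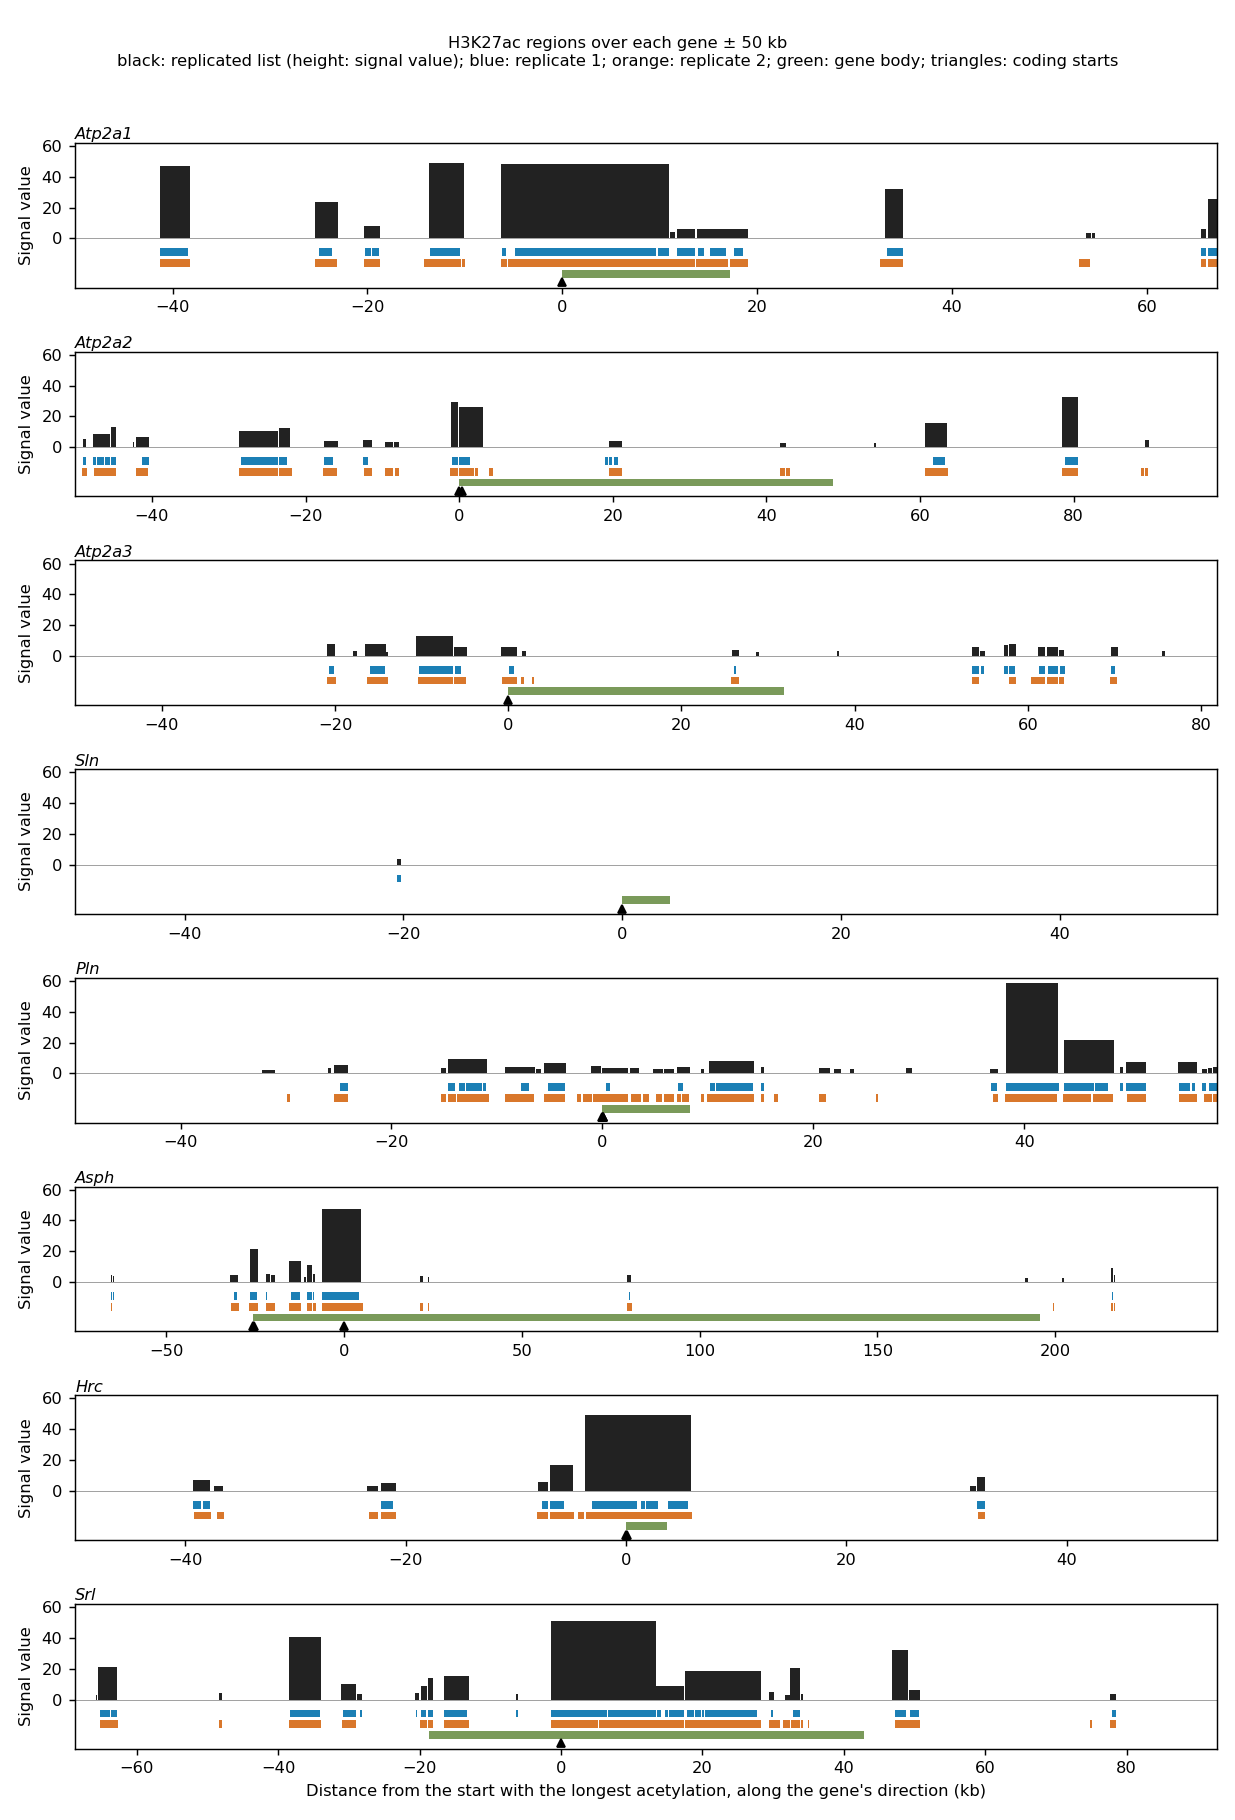
Regions over each gene body plus 50 kb on each side against distance from the start with the longest acetylation (kb, along the gene's direction); black bars span a region of the replicated list and their height is its signal value, a single number per region, and the rows beneath are replicate 1 (blue), replicate 2 (orange), the gene body (green) and coding starts (triangles). Single wide regions of signal value 47.6 to 51.3 sit at the starts of Atp2a1, Asph, Hrc and Srl, while the highest bar of the Pln panel, 58.7, lies 42.0 kb from its start, at Cep85l.

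Together the windows held 131 regions of the replicated list, of which 81 (61.8%) were shared with both single replicates, beside 63.3% of all regions, so sharing at these loci was near that of the genome. A further 24 were shared with replicate 2 only, 8 with replicate 1 only and 18 with neither. Sharing followed the signal value, as it did over all regions. All 30 regions of 10 or more were found in both replicates, as were nearly all such regions of the genome. From 5 to 10, 34 of the 34 were in replicate 1 and 33 in replicate 2, beside 95.4% and 99.8% of all regions. Of the 67 under 5, replicate 1 had 25 and replicate 2 had 42, beside 39.3% and 69.7% of all regions. The number of regions per window ran from 1 at Sln to 30 at Pln. By place, 10 lay at promoters of the members, 8 in their exons and 23 in their introns, 16 at promoters of other genes, 34 in bodies of other genes and 40 between genes. Only protein-coding genes were used for these places, so a region inside a noncoding gene counts as between genes. Median signal values were 27.8 at the members' promoters, 4.28 in their introns and 4.61 between genes.

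Promoters of other genes added to the coverage of the windows. Of 14 other protein-coding genes with a start in a window, 12 had a promoter region, beside 61.2% of all protein-coding genes. The Atp2a1 window was the most crowded: Sh2b1, an adaptor of insulin and cytokine receptors (signal value 48.7), Atxn2l (47.2), Rabep2, an endosomal protein (32.4), Nfatc2ip (25.9) and Tufm, the mitochondrial elongation factor (23.5), had promoter regions there. Only 1 region of that window lay between protein-coding genes, 19234 bp upstream (chr7:126481849-126483411, 8.39). Atp2a2 had 1 such neighbour, Anapc7, a subunit of the anaphase-promoting complex (32.7). Upstream of Atp2a2 there was none, and 10 regions between protein-coding genes, with 15929 bp in all, lay there. Of these, 7 were shared with both replicates, near the 63.3% of all regions. Atp2a3 had Camkk1, a calcium-regulated kinase (7.73), and P2rx1, an ATP-gated channel whose promoter region (3.09) was in the replicated list only. Srl had Tfap4, a helix-loop-helix transcription factor (40.3), and Hrc had Trpm4 and Ppfia3 (8.88), with Lin7b bare at its start.

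Replicate 1 gave shorter stretches than replicate 2 at most genes, and the shortfall was uneven across the set. Over the 14028 genes with any acetylated length in replicate 2, the replicate 1 length was a median of 84.0% of the replicate 2 length. It was 100% at Srl, 99.0% at Atp2a1, 94.0% at Asph and 71.2% at Hrc, and 57.6% at Atp2a2, 26.1% at Atp2a3 and 22.6% at Pln. The last 2 were at percentiles 4.84 and 4.67 of all genes. This comparison was chosen after the values were seen.

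Markers of fibre types and of other cells were set beside it. The 6 fast-fibre markers (Myh4, Mylpf, Tnnt3, Tnni2, Pvalb and Actn3) had 6 of 6 promoter regions, beside 61.2% of all genes. Their median was 9561 bp, with a median replicate 1 share of 91.6%, from 79.5% to 99.3%. The 6 slow-fibre markers (Myh7, Tnnt1, Tnni1, Tnnc1, Myl3 and Myl2) had 6 of 6 promoter regions, 5 in both replicates. Their median was 2697 bp, from 1648 to 4912 bp, and their median replicate 1 share was 70.7%. That share was 0% at Myh7, 22.1% at Tnnt1, 61.8% at Tnni1, 79.7% at Myl3, 84.9% at Tnnc1 and 100% at Myl2. Smooth muscle markers (Myh11, Acta2, Cnn1, Tagln and Smtn), 5 of 5 with a promoter region and 4 in both replicates, had a median of 4187 bp, from 739 to 8833 bp, and a share of 76.5%. Endothelial markers (Cdh5, Pecam1, Tie1, Egfl7 and Kdr), 5 of 5, had a median of 6918 bp, from 3454 to 10000 bp, and a share of 86.0%. All 6 cardiac markers (Myh6, Myl7, Nppa, Tnnt2, Ryr2 and Nkx2-5) were at 0 bp in each list, and of the 6 platelet and lymphocyte markers only Pf4 had a promoter region. The part of fibre type or other cells in the replicate difference at Atp2a2, Atp2a3 and Pln was not tested.

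Beside the other genes that move calcium in muscle, the set covered the whole range. Of 39 further calcium-handling genes, 36 had an acetylated promoter by the replicated list and 35 by both replicates, beside the 61.2% and 58.6% of all genes. Their median length was 5859 bp (4372 and 5885 bp in the replicates). The release group, which holds the ryanodine receptors, the voltage sensor and the junctional proteins, had 11 of 12 and a median of 6831 bp. The storage group, with the calsequestrins Casq1 and Casq2, had 5 of 5 and 7012 bp, store-operated entry (Stim1, Stim2 and Orai1) 3 of 3 and 7286 bp, and the kinases, phosphatase and sensors 7 of 7 and 6550 bp. The pumps and exchangers of the plasma membrane, which carry calcium out of the cell, had 5 of 6 and a median of 1998 bp, and the inositol trisphosphate receptors 3 of 3 and 2676 bp.

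Among the longest stretches of that list were those at Pvalb, the cytosolic buffer parvalbumin (9226 bp), and Casq1, the calsequestrin of fast fibres (8863 bp). Both were shorter than those of Atp2a1 and Asph. The genes without any were Ryr3, a ryanodine receptor of minor abundance in adult muscle, Slc8a1, the sodium-calcium exchanger best known from heart, and Strit1, which encodes the SERCA-binding micropeptide DWORF. Mrln, myoregulin, another micropeptide that binds SERCA, had 2538 bp, 2174 bp in replicate 1. So of the 4 small SERCA-binding proteins measured, Sln and Strit1 were bare, and Mrln and Pln had the mark.

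**Figure D4:**
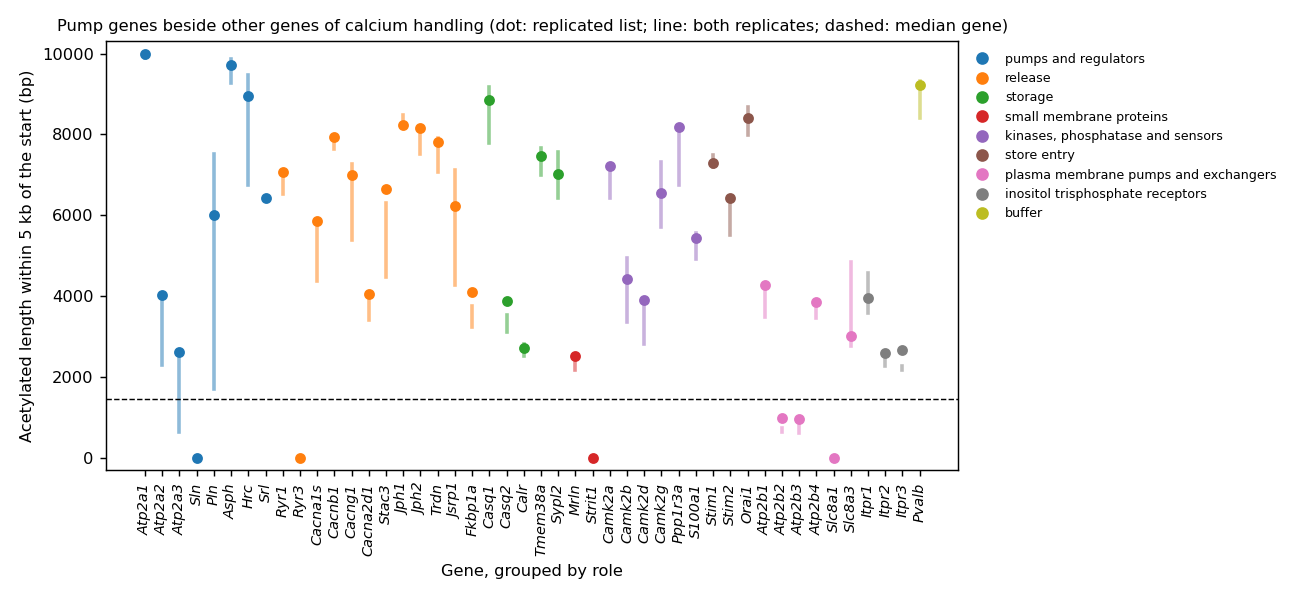
Acetylated length within 5 kb of the start (bp) for the 8 pump and regulator genes and 38 other calcium-handling genes grouped by role; dots are the replicated list, vertical lines join both replicates and the dashed line is the median of all genes, 1470 bp. Atp2a1 and Asph lie above every plotted gene of the other groups, Sln lies at 0 with Ryr3, Strit1 and Slc8a1, and the line of Pln is the longest.

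Likeness of the profile around the start was measured over 50 bins of 200 bp in both replicates, as the mean absolute difference of covered share over 100 values. Srl was most like Nr1d2, a circadian nuclear receptor (0.380 percentage points), and Asph most like Tns2, a focal adhesion protein (1.53). Hrc was most like Casq1 (8.45), Atp2a2 most like Sec24b, of vesicle coats (5.20), and Atp2a3 most like Gstt3, a glutathione transferase (4.92). Atp2a1 was tied with 30 genes covered over nearly the whole window (0.5), so no single gene was closest. Pln had no close match: the nearest was Actc1, cardiac actin, at 23.4 percentage points.

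Short sequence motifs within 250 bp of the summits occurred in these windows at shares near those of all regions or below them. Within 250 bp of the summit, on either strand, CANNTG, the E-box, was found in 118 of 131 regions (90.1%, against 91.8% of all regions). Its form CAGCTG, counted within those matches, was in 36 (27.5%, against 30.5%), and CATTCC, the M-CAT element, was in 25 (19.1%, against 24.9%). TGACTCA, the AP-1 site, was in 14 (10.7%, against 10.3%). MEF2 sites were in 6 regions (4.58%, against 7.59%), CArG boxes in 2 (against 2.41%) and TCAAGGTCA, the ERR site, in 2 (against 1.38%). The full NFI site was in 0, against 0.0675% of all regions. By gene, the count of regions with CAGCTG was highest at Atp2a2, 8 of 19, with 1 of 1 at Sln, and the 2 ERR matches lay in the Atp2a1 window. AP-1 letters lay in 5 regions each of the Pln and Asph windows.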

How the data were processed

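Tissue was described per the labels. Per the deposited library descriptions, the authors made 1 narrowPeak list from replicate 1, 1 from replicate 2, 1 from both pooled and a replicated list from both. This mapping was learned after the design was fixed. The authors deposited for each peak a signal value, whose reference is not stated, a q-value as −log10, and a summit. Not given in the sources used here: aligner, caller, thresholds and depth. Annotation was GENCODE M21 (basic) on GRCm38.p6. Python 3.11.15 and numpy 2.4.6 were used, and the scripts were tested on simulated data. A region was shared where at least 50% of the shorter region overlapped. Named were all members, in each window the region at the start and the 2 strongest regions away from starts, neighbours with a promoter region, the extremes of the calcium list and the most alike gene. Other names were chosen after their values were seen. Of the calcium list, 39 genes were matched, Strit1 by a synonym; Erln and Arln were not matched. Some genes of these lists and windows are not reported here by name or plotted. Members and lists were chosen with earlier results of these data known. Alternatives were the pooled list, each replicate alone, −log10 q of at least 5, other windows, starts and overlaps.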

Additional observations from a re-analysis of the deposited data

How the results depend on the processing

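The count of 7 members with a promoter region was the same in the pooled list, in either replicate alone, with −log10 q of at least 5, with windows of 500 or 2000 bp and when only the gene model's 5′ end was used. The median acetylated length of 6219 bp was 4372 bp without replicate 2, 6976 bp without replicate 1 and 3860 bp with 2500 bp to each side; the median covered percentage of 18.7% was 12.1% without replicate 2, 18.5% without replicate 1, 19.0% in the pooled list, 23.2% with 25 kb on each side and 36.0% over the gene body only. Of the 81 regions shared with both replicates, 24 remained when only gene bodies were counted, 54 when 50% of both regions had to overlap and 55 with 25 kb on each side. CAGCTG was found near 36 summits within 250 bp (27.5%, against 30.5% of all regions) and near 17 within 100 bp (13.0%, against 13.7%). Within 100 bp the shares of the E-box (71.8%, against 64.4%), M-CAT (11.5%, against 10.6%) and MEF2 (2.29%, against 1.69%) were above those of all regions. The other motifs were below at that distance. For single members, 35 alternative acetylated lengths differed from the reported value by less than the SD of both replicates, or not at all, and 13 by more, and of the covered percentages 33 by less and 23 by more; that SD is wide at Pln and narrow at Srl. The smaller windows and gene bodies hold fewer bases and regions by construction; otherwise the cause was not tested. No paired analysis between conditions was possible because there was 1 group. Without read counts, a shorter stretch in replicate 1 cannot be told apart from lower depth.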
